A study of Mus musculus with 35 samples.

Results

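Receptors for formyl peptides, complement fragments and lipid mediators steer phagocytes towards sites of infection and injury. The 6 mouse genes considered here were Fpr1, Fpr2, C3ar1, C5ar1, Ptafr and Ltb4r1, taken by symbol from the probe set annotation of 35 arrays of sorted mouse immune cells. A probe set was found for 5 of the 6, and Fpr1 was not analysed here. These 5 genes, with 9 probe sets, were 5 of the 18193 genes measured, and 4 of them had a measurable level on at least some arrays. Ptafr did not.

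Fpr1 and Fpr2 bind peptides that begin with formylmethionine, which are made by bacteria and mitochondria, and Fpr2 also binds annexin A1, cathelicidin and serum amyloid A. C5ar1 and C3ar1 bind C5a and C3a, the small fragments released when complement is activated. Ltb4r1 is the high-affinity receptor of leukotriene B4 and Ptafr the receptor of platelet-activating factor. All are G protein-coupled receptors that signal largely through Gi to phosphoinositide 3-kinase, Rac and the phagocyte oxidase, and are switched off by receptor kinases, arrestins and RGS proteins. Neutrophils are the textbook cell that carries them, and monocytes, macrophages, basophils and eosinophils use them to different degrees.

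All cells came from male C57BL/6J mice aged 8 weeks, kept pathogen-free and given no treatment named in the labels, and were sorted by flow cytometry. From bone marrow there were 2 arrays each of inflammatory monocytes and of SatM (segregated-nucleus-containing atypical monocytes, labelled as a monocyte linked to fibrosis). There were 4 arrays each of cMoP, the common monocyte progenitor, and of SMP, labelled as the progenitor of SatM, and in both sets 2 arrays were titled WT. GMP, the granulocyte and monocyte progenitor, and MDP, the monocyte, macrophage and dendritic cell progenitor, had 1 array each. Neutrophils, eosinophils and basophils, 2 arrays each, were sorted from spleen. A panel of 15 arrays, 1 for each cell type and tissue, held SatM from spleen, marrow, blood and lung, and 3 kinds of F480- Mac1+ Ly6C- cells that were not SatM. These were Msr1-Ceacam1- cells (spleen, marrow, blood), Msr1-dull Ceacam1-dull cells (marrow, lung) and the remaining Ly6C- monocytes (spleen, blood). It also held tissue-resident M2-like macrophages (spleen, marrow) and 2 resident macrophage sorts from lung, titled MP and F480 posi. The lung titles carry the abbreviation BAL, whereas the tissue label is lung. What WT was set against, how each gate was drawn beyond these names, and whether arrays came from separate or pooled mice are not given in the labels, so p-values measure only the spread between these arrays.

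The values are log2 expression values, and every array had the same lowest value, 2.30. Between 43.6% and 48.3% of an array's probe sets were at it. A value at or near 2.30 is therefore a bound and not a level. Probe sets differ in brightness, so the level of 1 receptor was not set against that of another. Arrays of 1 group correlated across genes with r from 0.962 in SMP to 0.998 in inflammatory monocytes. Several sorts carried markers of other cells. All 4 SMP arrays had 6 of 6 basophil markers in the array's upper quartile, with a log2 summed level of 16.21 to 16.46 against 16.49 and 16.58 in the basophils. The Msr1-Ceacam1- cells had 4 of 4 natural killer cell markers there, with a summed level of 14.47 to 15.42, and the next highest array stood at 9.10. Neutrophil markers were 7 of 7 in neutrophils (17.18 and 17.26) and in basophils (16.51 and 16.13), and 5 of 7 in eosinophils (15.51 and 15.37). Classical monocyte markers in the remaining Ly6C- monocytes of spleen and blood were F13a1 12.92 and 13.15, Vcan 11.37 and 11.28, and Fn1 12.34 and 12.66. Ccr2 read 12.58 and 12.85 and Csf1r 13.41 and 13.99. Inflammatory monocytes had 13.59 and 13.72, 11.04 and 10.86, 12.96 and 13.08, 12.85 and 13.27, and 14.29 and 14.52 in that order. The part of any of these in the results below was not tested. In bulk samples fewer cells of a type and less RNA per cell cannot be told apart.

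The sequences before the start sites of the 4 measurable receptors are shown because their levels differed so widely between the same cells. They are the 250 bases upstream of the start in RefSeq (GRCm38.p6), 5′ to 3′ on the gene's strand, with matches to 2 short myeloid motifs in capitals: GAGGAA, the core bound by PU.1, and GATAA, the core bound by GATA factors, each sought on both strands.
Fpr2: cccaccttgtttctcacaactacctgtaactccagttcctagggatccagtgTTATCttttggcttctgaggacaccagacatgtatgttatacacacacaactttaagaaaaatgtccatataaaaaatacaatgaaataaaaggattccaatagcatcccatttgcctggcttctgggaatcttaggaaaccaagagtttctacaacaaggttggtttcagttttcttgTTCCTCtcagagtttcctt
C3ar1: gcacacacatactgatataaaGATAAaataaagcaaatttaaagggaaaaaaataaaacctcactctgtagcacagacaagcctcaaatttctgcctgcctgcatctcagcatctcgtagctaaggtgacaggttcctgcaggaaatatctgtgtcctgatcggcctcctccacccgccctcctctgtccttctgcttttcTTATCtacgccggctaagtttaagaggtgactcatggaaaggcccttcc
C5ar1: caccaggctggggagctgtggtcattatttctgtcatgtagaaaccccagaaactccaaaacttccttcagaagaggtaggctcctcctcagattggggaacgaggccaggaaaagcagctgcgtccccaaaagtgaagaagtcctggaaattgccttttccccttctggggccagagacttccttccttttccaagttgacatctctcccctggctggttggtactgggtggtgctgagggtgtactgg
Ltb4r1: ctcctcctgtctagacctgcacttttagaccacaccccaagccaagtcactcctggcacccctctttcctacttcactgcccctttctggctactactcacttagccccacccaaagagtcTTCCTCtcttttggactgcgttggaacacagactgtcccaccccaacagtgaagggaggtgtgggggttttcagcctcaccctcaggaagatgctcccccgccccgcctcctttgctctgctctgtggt
The Fpr2 window was chr17:17887574-17887823 on the plus strand, and that of Ltb4r1 was chr14:55765712-55765961, also on the plus strand. The C3ar1 window was chr6:122856158-122856407 and the C5ar1 window chr7:16259339-16259588, both on the minus strand. The C5ar1 window overlaps the annotated gene, which spans chr7:16246743-16259540. GAGGAA, read on the opposite strand as TTCCTC, stood 19 bases before the Fpr2 start and 129 bases before that of Ltb4r1, and 23.3% of 32851 mouse promoter windows of this length held it. GATAA stood 229 bases before the C3ar1 start, and as TTATC 49 bases before it and 198 bases before the Fpr2 start, with 22.6% of windows holding it. The C/EBP motif TTNNGNAAT was in none of these windows and in 10.2% of all. These are matches of letters, and the arrays hold no measurement of binding. Fpr1 and Fpr2 lie 3884 bases apart on chromosome 17, Ltb4r1 lies 1895 bases from Ltb4r2 on chromosome 14, and C5ar1 lies 2588 bases from C5ar2 on chromosome 7.

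Fpr2 was the receptor with the widest range, from the minimum of the arrays to 14.34. Both neutrophil arrays were at the top, at 14.32 and 14.34, followed by the inflammatory monocytes at 12.20 and 12.16. SatM of marrow gave 11.15 and 11.10, and SatM of the panel 11.88 in blood, 11.76 in marrow, 11.43 in spleen and 8.98 in lung. The remaining Ly6C- monocytes, whose classical monocyte markers are given above, were close to the inflammatory monocytes, at 12.04 in spleen and 11.99 in blood. Basophils stood at 10.91 and 9.86 and eosinophils at 8.17 and 9.45. The lung sort titled MP had 11.90 and the sort titled F480 posi 8.97, while M2-like macrophages had 9.81 in spleen and 8.73 in marrow. Progenitors were low: GMP was at 2.30, MDP at 3.18, and cMoP ran from 3.59 to 6.01. In SMP 3 arrays lay between 2.82 and 4.28 and the array titled SMP_WT_1 at 7.98. That array also had the highest neutrophil marker level of the 4 SMP arrays, 14.75 with 7 of 7 markers, against 12.11 to 12.86 with 4 or 5 of 7 in the others. Msr1-Ceacam1- cells were at the minimum in spleen and marrow and at 2.35 in blood, and the Msr1-dull cells differed between marrow, 8.41, and lung, 3.68. The eosinophil range, 8.17 to 9.45, held the lung SatM, the lung F480 posi sort, the marrow M2-like macrophages and the marrow Msr1-dull cells. SMP, cMoP and the lung Msr1-dull cells overlapped each other, and MDP lay within the SMP range.

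C5ar1 was bright in most mature cells. Neutrophils had 14.16 and 14.05, and the 4 SMP arrays, though labelled as progenitors, had 13.27, 13.11, 14.01 and 13.81. SatM ranged from 12.81 and 12.93 in the replicated marrow arrays to 13.29 in blood, 13.46 in lung, 13.62 in spleen and 13.69 in the panel's marrow array. Both lung macrophage sorts were at this level, with 13.79 for MP and 13.51 for F480 posi. Basophils (12.08 and 11.36) lay above inflammatory monocytes (11.28 and 11.00), which lay above eosinophils (9.52 and 9.62), and no array of one group overlapped the next. At the low end were GMP at 6.33, MDP at 6.65 and Msr1-Ceacam1- cells of blood at 6.52, with 7.39 in marrow and 9.29 in spleen. The cMoP arrays spread widely, at 4.95 and 6.30 for the numbered pair and 9.04 and 6.92 for the pair titled WT. A second C5ar1 probe set was at the minimum on most arrays. It was brightest in neutrophils too, at 7.14 and 6.50.

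C3ar1 had a different order. Its highest levels were in the lung F480 posi macrophages at 11.89, the lung SatM at 11.46 and the SMP arrays at 11.89, 11.55, 11.06 and 10.92. Basophils followed at 9.84 and 8.63. SatM of other tissues were far below those of lung, at 7.70 in spleen, 6.21 in marrow and 5.89 in blood, and 4.48 and 3.66 in the replicated marrow arrays. Inflammatory monocytes had 6.41 and 6.58. Neutrophils (4.78 and 3.84) and eosinophils (4.0 and 4.20) were low on this probe set and overlapped each other. The cMoP arrays, at 2.34 to 3.32, and the Msr1-dull cells of marrow, at 2.33, came last. The lung MP macrophages, with 4.38, did not share the level of the other lung macrophage sort.

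Ltb4r1 had the narrowest range of the 4, from 2.55 to 9.41. Neutrophils were again highest, at 9.41 and 9.28, and the panel's marrow SatM came next at 9.04. Inflammatory monocytes (8.13 and 7.89), SatM (7.54 and 7.78), SMP (7.17 to 7.77), basophils (7.10 and 7.57) and eosinophils (7.04 and 7.36) formed a run of groups in which most neighbours overlapped. GMP had 6.80, MDP 5.80 and cMoP 5.35 to 6.67. Low values were found in Msr1-Ceacam1- cells, at 4.10 in spleen, 2.82 in blood and 2.77 in marrow, and in M2-like macrophages, at 2.55 in spleen and 3.60 in marrow. The lung macrophages were also below the monocytes, at 4.01 for MP and 5.63 for F480 posi.

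Ptafr gave no level. The brighter of its probe sets was at its lowest value, 2.36, on 28 of 35 arrays and reached 2.58 at most, and the other was at 2.30 on all 35. The neutrophil arrays were at the lowest value as well, so these probe sets say nothing about which cells carry the receptor, and no differences are given for it.

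**Figure D1:**
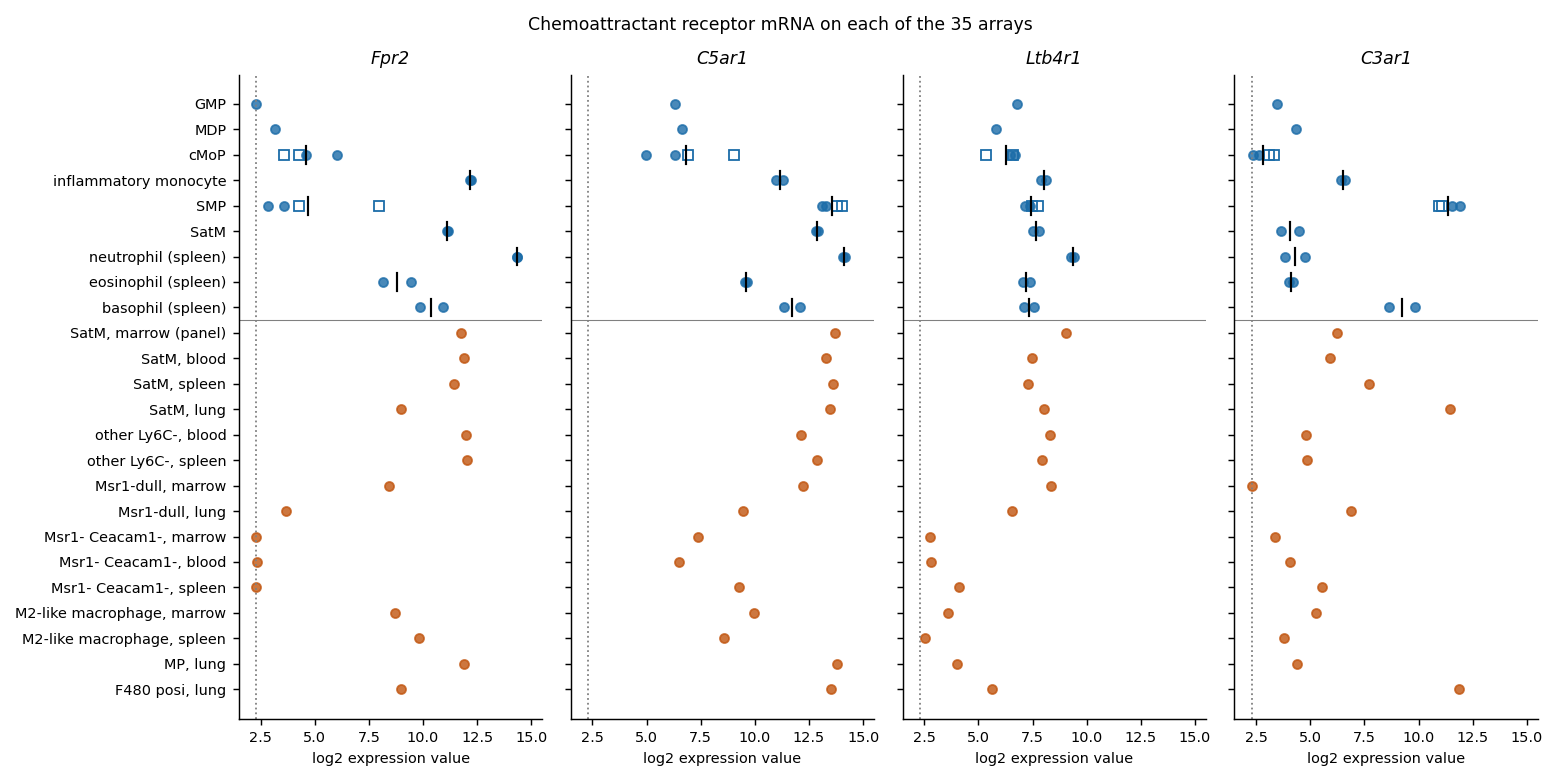
Log2 expression values (x axis) of Fpr2, C3ar1, C5ar1 and Ltb4r1 on each of the 35 arrays, by cell type and tissue (y axis), 1 point per array, open squares for the arrays titled WT, short bars for group means, panel arrays under the grey line and the shared minimum of 2.30 as a dotted line. Neutrophils are at the right edge for Fpr2 (14.32 and 14.34), C5ar1 (14.16 and 14.05) and Ltb4r1 (9.41 and 9.28), and among the low groups for C3ar1 (4.78 and 3.84).

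Over the 24 means of cell type and tissue, Fpr2 ran most closely with C5ar1 (Pearson r 0.78) and less so with Ltb4r1 (0.52), whereas its r with C3ar1 was 0.12. C5ar1 had r 0.58 with Ltb4r1 and 0.50 with C3ar1, and C3ar1 had 0.22 with Ltb4r1. Among 12867 genes the patterns most like Fpr2 were those of Svil (r 0.88), which encodes the actin-binding protein supervillin, Klra2 (0.88), which encodes a Ly49-type lectin receptor, and 6430548M08Rik (0.88). Those most like C5ar1 were Cnr2 (0.88), the peripheral cannabinoid receptor, Cyp4f18 (0.83), an enzyme that breaks down leukotriene B4, and Crlf2 (0.83), a subunit of the thymic stromal lymphopoietin receptor. For Ltb4r1 they were Pi16 (0.92), Emilin2 (0.87), an extracellular matrix glycoprotein, and Nhsl2 (0.86). For C3ar1 they were Numbl (0.80), Plxdc2 (0.79) and Cd276 (0.78), of which Numbl varied by an SD of only 0.03 close to the minimum. Means share tissues and a normalisation, and these r values are descriptions.

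Differences between cell types were tested with limma across 12077 genes in the 20 arrays outside the panel. A gene was called at an adjusted p under 0.05 and a log2 difference of at least 1. All 5 receptors passed the filter on dim genes, Ptafr only because its lowest value lies above the median of many arrays.

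Among the granulocytes, neutrophils had more Fpr2, C5ar1 and Ltb4r1 than eosinophils, and 3 of the 5 receptors were called where 40.5% of all genes were. Fpr2 was 5.52 higher on the log2 scale (SE 1.25, adjusted p = 0.00308), a 45.8-fold difference. C5ar1 was 4.54 higher (SE 0.64, adjusted p = 9.08e-05) or 23.2-fold, and Ltb4r1 2.15 higher (SE 0.40, adjusted p = 0.000781) or 4.43-fold. For each of these 3, both neutrophil arrays lay above both eosinophil arrays, and the share of all genes separated in this way was not counted. C3ar1 differed by 0.21 on its chosen probe set (adjusted p = 0.845), but its other probe sets were not in accord: 1442082_at read 2.44 and 2.57 in neutrophils against 6.52 and 6.19 in eosinophils, a difference of -3.85 (adjusted p = 3.47e-05), and 1419482_at gave -1.62 (adjusted p = 0.00387). C3ar1 between these cells is therefore uncertain.

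Against basophils, neutrophils had less C3ar1 and more Fpr2, C5ar1 and Ltb4r1, so that 4 receptors were called where 37.4% of genes were. C3ar1 differed by -4.93, with a neutrophil mean of 4.31 ± 0.66 (SD, n = 2) against 9.23 ± 0.85 (SD, n = 2), with a limma adjusted p of 9.51e-06 and a 30.4-fold difference. Ltb4r1 was 2.01 higher (adjusted p = 0.00129), C5ar1 2.39 higher (adjusted p = 0.00878) and Fpr2 3.94 higher (adjusted p = 0.0228). The last 2 calls were lost without single arrays. The adjusted p of Fpr2 was 0.132 without the second basophil array, 0.0894 without the first neutrophil array and 0.0847 without the second. That of C5ar1 was 0.0765 without the second basophil array and 0.0507 without the first neutrophil array. Neutrophil markers were high in the basophil arrays, as given above.

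Between eosinophils and basophils 2 receptors were called, where 20.6% of genes were, and both were lower in eosinophils. C3ar1 differed by -5.13 (SE 0.52, adjusted p = 2.18e-05), a 35.1-fold difference on the chosen probe set. The call was made in all 16 alternatives, but the size was not stable, running from -5.74 to -2.38. The probe set 1442082_at read 6.52 and 6.19 in eosinophils against 9.42 and 8.05 in basophils. C5ar1 differed by -2.15 (adjusted p = 0.0276), but leaving out either array of either group raised its adjusted p to between 0.0574 and 0.167. Fpr2 differed by -1.58 (adjusted p = 0.434) and Ltb4r1 by -0.14 (adjusted p = 0.932).

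Neutrophils were also set against inflammatory monocytes, where 33.2% of genes were called, although one came from spleen and the other from marrow, so that tissue and cell type cannot be told apart. C5ar1 was 2.97 higher in neutrophils (SE 0.64, adjusted p = 0.00256), a 7.83-fold difference. C3ar1 differed by -2.19 (adjusted p = 0.00529), and its adjusted p was 0.0606 without the second neutrophil array. Ltb4r1 was 1.34 higher (adjusted p = 0.0182), a call that was lost without each array of either group, at 0.0561 to 0.105. The C3ar1 probe set 1419482_at, near the minimum in both cell types, gave -0.50 and was not called (adjusted p = 0.360). The third, 1442082_at, read 2.44 and 2.57 in neutrophils against 4.54 and 5.38 in inflammatory monocytes. Fpr2 was 2.15 higher and the arrays did not overlap, but the adjusted p was 0.215. The residual SD of Fpr2 over the 20 arrays was 1.38, the largest of the receptors, and when only these 4 arrays were fitted the adjusted p was 0.000616.

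In the marrow, the progenitors of the 2 monocyte lines carried very different receptors. SMP had far more C3ar1 and C5ar1 than cMoP: C3ar1 averaged 11.36 ± 0.45 (SD, n = 4) against 2.84 ± 0.44 (SD, n = 4), and C5ar1 13.55 ± 0.43 (SD, n = 4) against 6.80 ± 1.70 (SD, n = 4). The differences were 8.52 for C3ar1 (SE 0.37, limma adjusted p = 2.86e-09), with no fold given because cMoP lay near the minimum, and 6.75 for C5ar1 (SE 0.45, adjusted p = 1.23e-07), or 107-fold. Ltb4r1 was 1.18 higher (SE 0.28, adjusted p = 0.00405). These 3 receptors were called where 35.5% of genes were. The first 2 were called in each of 22 and 21 alternatives. Ltb4r1 was under the fold threshold without the first WT-titled cMoP array, at 0.84, and uncalled within the numbered arrays (0.70, adjusted p = 0.159) and within the WT-titled arrays (1.66, adjusted p = 0.157). Fpr2 differed by 0.06 (SE 0.89), and the sign was not stable: the difference was -1.11 (adjusted p = 0.124) without the array SMP_WT_1. Basophil markers were 6 of 6 in SMP and 1 of 6 in cMoP, and their part in the C3ar1 and C5ar1 differences was not tested. The basophils, sorted from spleen, had 9.84 and 8.63 for C3ar1.

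Inflammatory monocytes had more of all 4 measurable receptors than cMoP, where 14.9% of genes were called. Fpr2 averaged 12.18 ± 0.03 (SD, n = 2) against 4.61 ± 1.02 (SD, n = 4), with a fitted difference of 7.96 (SE 1.17, limma adjusted p = 0.000421). This is 249-fold. C5ar1 differed by 5.10 (SE 0.59, adjusted p = 6.95e-05), C3ar1 by 3.65 (SE 0.49, adjusted p = 0.000205) and Ltb4r1 by 1.69 (SE 0.37, adjusted p = 0.00709). The fit includes a term for the WT title, so the C5ar1 value is larger than the plain difference of the means, 4.34. The Ltb4r1 call was lost without the first inflammatory monocyte array (adjusted p = 0.0734). Other probe sets of C3ar1 (1419482_at, 0.23) and C5ar1 (1422190_at, 0.07) lay near the minimum in both cell types and were not called.

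SatM, set against SMP, had the opposite balance of 2 receptors, which were called where 26.8% of genes were. Fpr2 was 6.84 higher in SatM (SE 1.17, adjusted p = 0.000615), with no fold given because SMP arrays reached down to 2.82, near the minimum. C3ar1 differed by -7.29 (SE 0.49, adjusted p = 1.72e-07), a 157-fold lower level in SatM on the chosen probe set, where SatM read 4.48 and 3.66. On its other probe sets SatM was at or near the minimum, at 2.30 and 2.30 on 1419482_at and 3.05 and 2.44 on 1442082_at. The fold is therefore approximate. C5ar1 differed by 0.08 in the fit (adjusted p = 0.977), although both SatM arrays, at 12.93 and 12.81, lay below all 4 SMP arrays and the plain difference was -0.68. The second C5ar1 probe set gave -1.25 and was called (adjusted p = 0.0461). Ltb4r1 differed by 0.15 (adjusted p = 0.841), and its arrays overlapped. With Fpr2 at 2.82 in one SMP array and 7.98 in another, the Fpr2 difference ran from 5.97 to 7.92 on the log2 scale over 16 alternatives, and was called in each. The basophil markers, 6 of 6 in SMP, were 0 of 6 in both SatM arrays at summed levels of 5.13 and 5.69, and their part in the C3ar1 difference was not tested. Neutrophil markers had summed levels of 14.83 and 15.47 in SatM and of 12.11 to 14.75 in SMP, the highest in SMP_WT_1. Their part in the Fpr2 difference was not tested.

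The change from progenitor to mature cell differed between the 2 lines, by a test of the difference itself. For C3ar1 the step from SMP to SatM minus the step from cMoP to inflammatory monocytes was -10.95 (SE 0.64, limma adjusted p = 1.61e-07). For C5ar1 it was -5.02 (SE 0.78, adjusted p = 0.000488), made up of 0.08 between SatM and SMP and 5.10 between inflammatory monocytes and cMoP. The second C5ar1 probe set gave -1.32 (adjusted p = 0.119). For Ltb4r1 it was -1.53 (adjusted p = 0.0379), a call lost in 9 of 22 alternatives. Among these were leaving out either array of inflammatory monocytes or SatM, each WT-titled SMP array or the first numbered cMoP array, with adjusted p from 0.0519 to 0.139. For Fpr2, which was higher in the mature cell on both sides, the steps differed by -1.12 (SE 1.53, adjusted p = 0.671). The 3 calls compare with 22.3% of all genes. The basophil markers were high in SMP and not in these SatM arrays, as given above, and their part in the steps was not tested.

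**Figure D2:**
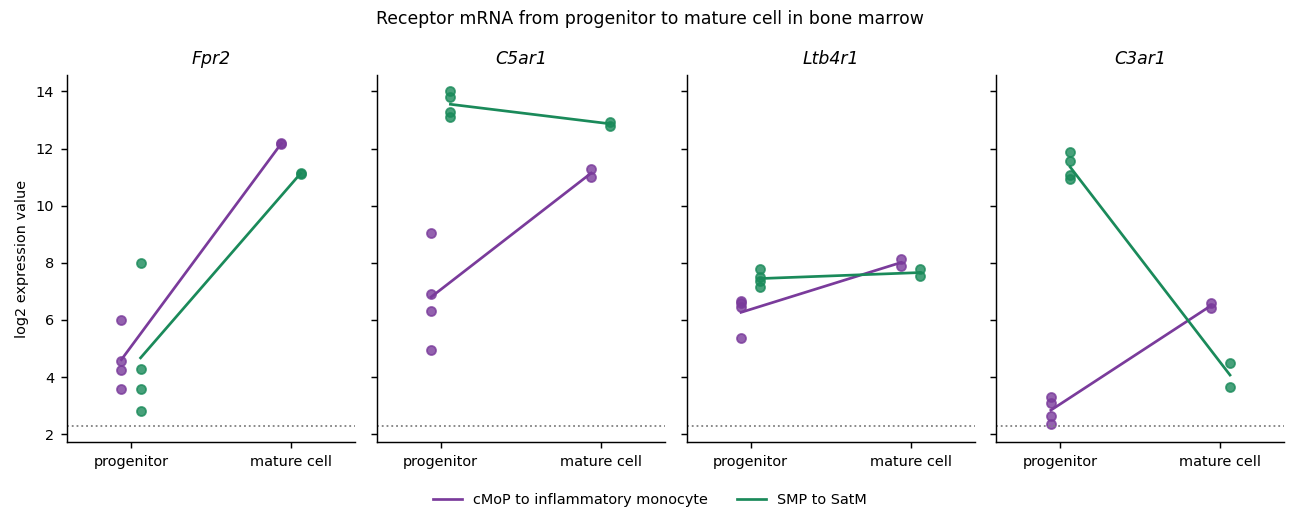
Log2 expression values (y axis) of the 4 receptors in the marrow progenitor (left) and mature cell (right) of each line, cMoP to inflammatory monocytes and SMP to SatM, 1 point per array, with lines joining group means and the minimum of the values as a dotted line. C3ar1 falls from 11.36 to 4.07 in the SatM line and rises from 2.84 to 6.50 in the other, while Fpr2 rises in both. Basophil markers were high in SMP and not in these SatM arrays, and their part was not tested.

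Between the mature marrow cells, SatM and inflammatory monocytes, C3ar1 alone of the 5 receptors was called, and 9.34% of genes were. Its SatM mean was 4.07 ± 0.58 (SD, n = 2) and its inflammatory monocyte mean 6.50 ± 0.12 (SD, n = 2), a difference of -2.43 (SE 0.52, limma adjusted p = 0.0101). The adjusted p was 0.0603 and 0.0822 without the first and the second inflammatory monocyte array, and 0.0897 when the second SatM array was left out. With the panel's marrow SatM array added, C3ar1 differed by -1.71 (adjusted p = 0.123) and C5ar1, at 2.00, was called (adjusted p = 0.0490). That added array had neutrophil markers at a summed level of 16.98, against 14.83 and 15.47 in the other marrow SatM. In the main fit C5ar1 was 1.72 higher in SatM (adjusted p = 0.115), and the differences of Fpr2 and Ltb4r1 were -1.05 (adjusted p = 0.780) and -0.35 (adjusted p = 0.758). In a fit of these 4 arrays alone, C5ar1 (adjusted p = 0.0156) and Fpr2 (adjusted p = 0.0121) were called as well. The C3ar1 probe set 1419482_at differed by -0.50 and was not called (adjusted p = 0.530), whereas 1442082_at gave -2.21 (adjusted p = 0.0103). Eosinophil markers were 3 of 6 in both SatM arrays, at summed levels of 13.18 and 11.76, and 0 of 6 in the inflammatory monocytes, at 5.12 and 5.01. Their part in these differences was not tested.

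In the tissue panel, SatM had far more Fpr2, C5ar1 and Ltb4r1 than the Msr1-Ceacam1- cells, and 3 receptors were called where 10.2% of 11734 genes were. The panel has 1 array per cell type and tissue, and its spread is what remains after terms for both. C5ar1 was 6.03 higher in SatM (SE 0.65, limma adjusted p = 0.0015), or 65.4-fold, and Ltb4r1 4.85 higher (SE 0.66, adjusted p = 0.00398). Fpr2 was 9.58 higher (SE 0.72, adjusted p = 0.000264). No fold is given for Fpr2 or Ltb4r1, since the Msr1-Ceacam1- cells of marrow and blood were at or near the minimum. The other C5ar1 probe set, 1422190_at, differed by 2.05 and was not called (adjusted p = 0.0693). C3ar1 differed by 2.33 (adjusted p = 0.419). All SatM arrays lay above all Msr1-Ceacam1- arrays for the 4 receptors, for C3ar1 narrowly, with 5.89 in blood SatM against 5.52 in spleen Msr1-Ceacam1- cells. The share of all genes separated in this way was not counted. The Msr1-Ceacam1- arrays are those with the natural killer cell markers, and they had 0 to 3 of 7 neutrophil markers in the upper quartile.

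No receptor was called between SatM and the remaining Ly6C- monocytes, where limma called 8 genes in all (0.0682%) and 907 genes had an unadjusted p under 0.05. C3ar1 differed by 1.86, C5ar1 by 1.03, Ltb4r1 by -0.32 and Fpr2 by -0.11, with 95% intervals of -2.58 to 6.31 for C3ar1 and -2.07 to 1.86 for Fpr2.

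M2-like macrophages had less C5ar1 and Ltb4r1 than SatM, where 8.31% of genes were called. C5ar1 stood at 8.58 and 9.96, under all 4 SatM arrays, with a difference of -4.87 (SE 0.75, limma adjusted p = 0.00832), or 29.2-fold. Ltb4r1 stood at 2.55 and 3.60, with a difference of -5.18 (SE 0.76, adjusted p = 0.0066). The macrophage values lie near the minimum, so no fold is given. Without the spleen macrophage array neither was called (adjusted p = 0.0984 and 0.0750), and without the marrow one the adjusted p of Ltb4r1 was 0.0507. Fpr2 differed by -2.63 (adjusted p = 0.104), and was called (adjusted p = 0.0303) when the lung macrophage sorts were given separate terms. C3ar1 differed by -2.30 (adjusted p = 0.543). The other C5ar1 probe set gave -2.59 and was not called (adjusted p = 0.0622). Neutrophil markers were lower in the macrophages within spleen and within marrow. They were 1 of 7 at a summed level of 7.06 in the spleen macrophages against 5 of 7 at 15.32 in the spleen SatM, and 5 of 7 at 13.89 against 6 of 7 at 16.98 in marrow. The blood and lung SatM, also in this comparison, had only 2 of 7, at 8.97 and 9.57. Their C5ar1 was 13.29 and 13.46 and their Ltb4r1 7.49 and 8.05. The part of the neutrophil markers in the result was not tested.

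For the lung macrophages, taken as 1 cell type, no receptor was called against SatM. In this comparison limma called 0.239% of genes, and 806 had an unadjusted p under 0.05. Ltb4r1 differed by -2.82 (SE 0.91, adjusted p = 0.580), and both lung macrophage arrays lay below all 4 SatM arrays. C3ar1 differed by -3.19 (SE 2.26, adjusted p = 0.791), Fpr2 by 2.07 (adjusted p = 0.734) and C5ar1 by 0.86 (adjusted p = 0.833). The lack of a call does not show equal levels. The 2 sorts were far apart in C3ar1, 4.38 in MP and 11.89 in F480 posi. Fpr2 stood at 11.90 and 8.97 and Ltb4r1 at 4.01 and 5.63, while C5ar1 was close in both, at 13.79 and 13.51. The F480 posi values were near those of the lung SatM for C3ar1 (11.46) and Fpr2 (8.98). The residual SD of C3ar1 in the panel, 2.33, was the largest of the receptors. With the sorts apart, C3ar1 differed by -6.94 between MP and SatM (adjusted p = 0.0280), a call also made without the F480 posi array (0.0282), and by 0.56 between F480 posi and SatM. The markers of the sorts differed as well. MP had 6 of 6 alveolar macrophage markers at a summed level of 15.59, and F480 posi 3 of 6 at 13.90, with 5 of 6 general tissue macrophage markers against 3 of 6 in MP.

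Lung arrays had less Fpr2 than marrow arrays at the same cell type, and this was the 1 receptor called, where 9.3% of genes were. The fitted difference was -3.51 (SE 0.85, limma adjusted p = 0.0421). In the 2 cell types sorted from both tissues, SatM had 8.98 in lung and 11.76 in marrow, and the Msr1-dull cells had 3.68 and 8.41. The lung and marrow arrays did not hold the same cell types otherwise, and their plain difference had the opposite sign, 0.58. The call was lost without either Msr1-dull array (adjusted p = 0.250 and 0.2505), without the marrow SatM (0.0924), the marrow Msr1-Ceacam1- (0.0609) or the marrow M2-like array (0.0538). The Msr1-dull cells of marrow had 5 of 7 neutrophil markers at a summed level of 16.78, against 1 of 7 at 8.27 in lung, and SatM had 16.98 in marrow and 9.57 in lung. Blood SatM, with Fpr2 at 11.88, had 8.97. Eosinophil markers in the Msr1-dull cells were 4 of 6 at 14.07 in marrow and 2 of 6 at 8.69 in lung. The part of these markers in the Fpr2 difference was not tested. C3ar1 moved the other way in both cell types, with 11.46 and 6.87 in lung against 6.21 and 2.33 in marrow. Its fitted difference was 4.80 (SE 1.92, adjusted p = 0.149). It was called when the lung macrophage sorts had separate terms (adjusted p = 0.0256), and without the MP array (0.0245) or the F480 posi array (0.0246). The lung SatM had 5 of 6 general tissue macrophage markers at a summed level of 14.53 and the marrow SatM 3 of 6 at 11.96, while the Msr1-dull cells had 1 of 6 at 10.93 in lung and 3 of 6 at 11.80 in marrow. Their part in the C3ar1 difference was not tested. C5ar1 differed by -1.42 (adjusted p = 0.268) and Ltb4r1 by -0.97 (adjusted p = 0.457).

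**Figure D3:**
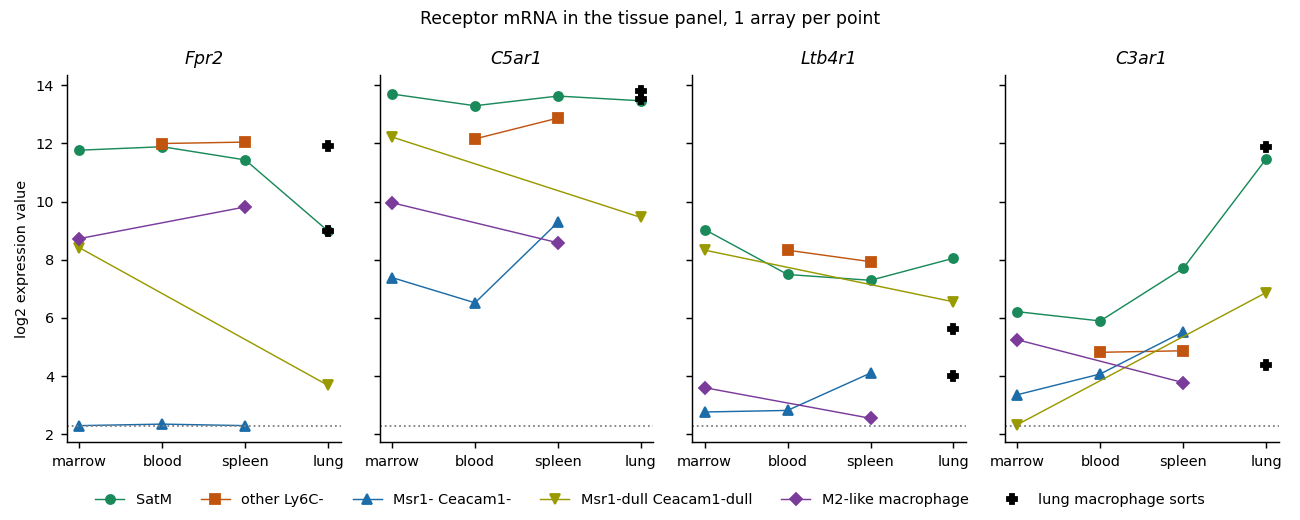
Log2 expression values (y axis) of the 4 receptors in marrow, blood, spleen and lung (x axis), with 1 point per array and a line for each cell type found in more than 1 tissue. Lung SatM stand apart from SatM of the other tissues, with C3ar1 at 11.46 and Fpr2 at 8.98.

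**Figure D4:**
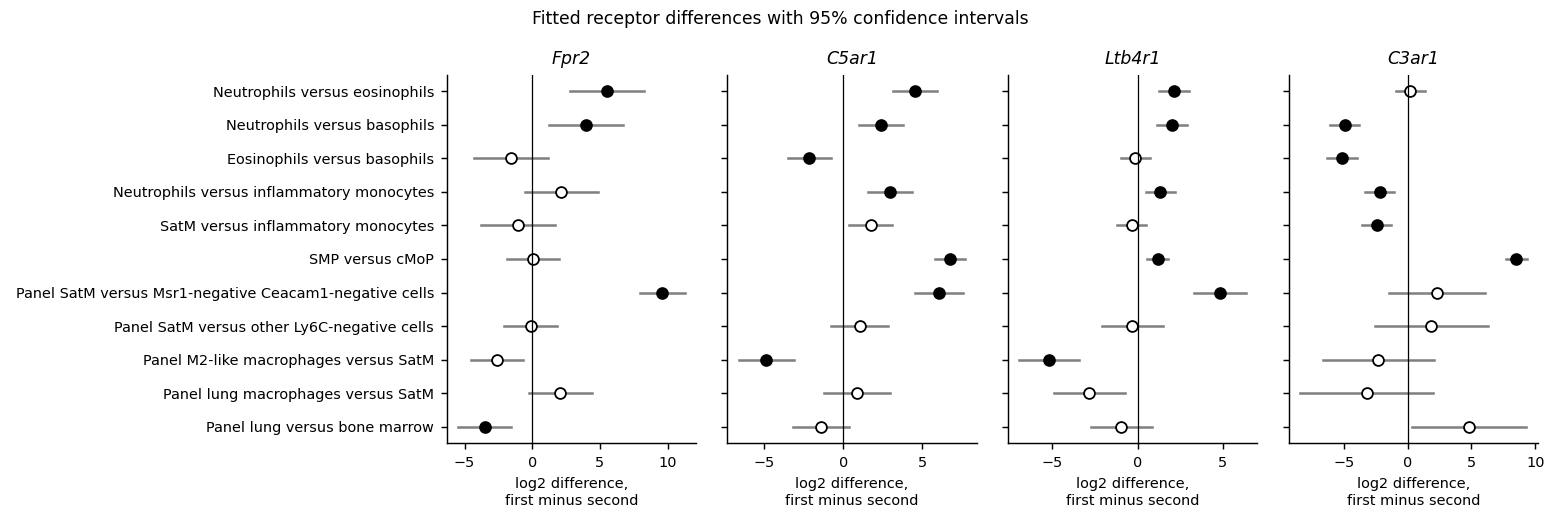
Fitted log2 differences (x axis, first group minus second) of the 4 receptors in the comparisons between cell types of like maturity and between tissues (y axis), with 95% confidence intervals as lines, filled points for called differences and open points for the others. C3ar1 runs from -5.13 in eosinophils against basophils to 8.52 in SMP against cMoP, and its panel intervals are wide.

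The genes around these receptors were read in 4 lists. Related chemoattractant receptors had a probe set for 8 of 13 genes, and 3 passed the filter: Cysltr1, a cysteinyl leukotriene receptor, Cmklr1, the chemerin receptor, and Hrh4, a histamine receptor. Genes of Gi signalling to phosphoinositide 3-kinase, Rac and the oxidase had 21 tested of 24, desensitisation genes 9 of 10, and genes that make or break the ligands 13 of 15.

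In neutrophils against eosinophils, where 40.5% of all genes were called, 10 of 21 signalling genes were higher and 1 lower, with a median difference of 1.10 where the median of all genes was -0.02. Cybb, the catalytic subunit of the oxidase, was 2.15 higher (adjusted p = 0.0444), Prex1, a Rac activator, 2.05 higher (adjusted p = 0.000206) and Rac2 2.02 higher (adjusted p = 0.00135). Desensitisation genes split, 2 higher and 2 lower: Rgs1, which shortens G protein signals, differed by -4.51, the receptor kinase Grk3 by -3.72 and the kinase Grk5 by 3.50. Of the ligand genes 6 were higher and 1 lower, with a median of 0.56. They included Hc, which encodes complement C5 (3.13), Camp, which encodes the Fpr2 ligand cathelicidin and is itself a neutrophil marker (2.87), and Anxa1, which encodes annexin A1 (2.77).

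Against basophils, where 37.4% of all genes were called, 8 of 21 signalling genes were higher in neutrophils and 0 lower, with a median of 0.87 beside -0.01 for all genes. Pik3r6 and Pik3r5, the regulatory subunits of the phosphoinositide 3-kinase that Gi receptors use, were 6.20 and 4.98 higher, and the kinase Fgr 6.19 higher. Eosinophils, set against the same basophil arrays, differed by 5.68 in Pik3r6, 3.78 in Pik3r5 and 4.65 in Fgr. Pla2g7, which inactivates platelet-activating factor, was 7.81 higher in neutrophils than in basophils, where it read 2.30. Hrh4 was at the minimum in neutrophils and eosinophils and at 7.09 ± 0.84 (SD, n = 2) in basophils. Against inflammatory monocytes, where 33.2% of all genes were called, 7 of 13 ligand genes were higher in neutrophils and 2 lower, with a median of 2.03 beside 0 for all genes. Alox5, the first enzyme of leukotriene synthesis, was 4.78 higher.

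In SMP against cMoP, where 35.5% of all genes were called, 6 of 13 ligand genes were higher and 2 lower, with a median of 1.17 beside -0.09 for all genes. Alox5 was 8.04 higher (SE 0.25, limma adjusted p = 1.58e-10) and Lpcat2, which makes platelet-activating factor, 6.51 higher, while Ptgr1, which inactivates leukotriene B4, differed by -6.32. The signalling genes went both ways, 4 higher and 5 lower of 21, with a median of 0.02 and differences of -6.88 for Pik3r6, -4.87 for Cybb and -2.87 for Fgr. Rgs1 was 6.15 higher and arrestin Arrb2 2.59 higher. Hrh4 averaged 7.01 ± 1.05 (SD, n = 4) in SMP and was at the minimum in all 4 cMoP arrays.

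From SMP to SatM, Fgr was 8.48, Cybb 7.11 and Pik3r6 6.31 higher, and 6 of 21 signalling genes were higher and 4 lower, where 26.8% of all genes were called, with a median of 0.43 beside -0.03 for all genes. Alox5 differed by -3.03 and Pla2g7 by 5.75. From cMoP to inflammatory monocytes, where 14.9% of all genes were called, 2 of 21 signalling genes were higher and 0 lower, Fgr by 4.93 and Dock2, a Rac activator, by 1.06. Pla2g7 was 6.27 and Lpcat2 5.48 higher, and Cysltr1 3.42 higher. Between the mature cells, Cysltr1 was at the minimum in both SatM arrays and averaged 6.41 ± 0.07 (SD, n = 2) in inflammatory monocytes. The G protein subunit Gng2 differed by -2.31 in SatM, Rgs1 by 2.90 and Grk3 by 2.15.

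In the panel, 8 of 13 ligand genes were higher in SatM than in Msr1-Ceacam1- cells and 0 lower, with a median of 4.72 beside -0.06 for all genes. In the same comparison 5 of 21 signalling genes were higher and 0 lower, where 10.2% of all genes were called. Pla2g7 was 7.03 higher, Cyp4f18 6.58 higher and Cybb 7.28 higher. No gene of the 4 lists was called between SatM and the remaining Ly6C- monocytes. M2-like macrophages had 3 of 13 ligand genes lower than SatM and 0 higher, where 8.31% of all genes were called, with a median of -3.19 beside 0.03 for all genes. Saa3, which encodes a serum amyloid A, differed by -6.34, Anxa1 by -5.44, Cyp4f18 by -5.10 and the oxidase subunit Ncf4 by -3.14. Between lung and marrow, Camp differed by -11.13 (SE 1.92, limma adjusted p = 0.0184) and Cysltr1 by 3.71 (SE 0.27, adjusted p = 0.000642).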

How the data were processed

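Total RNA of sorted cells was labelled by the standard Affymetrix protocol and hybridised, per the labels' protocols. The authors deposited log2 expression values per probe set for 35 arrays. The base, 2, is an inference from values of 2.30 to 16.02, and the summarisation method is not given in the sources used here. Probe sets were named by the platform annotation; of 45101, 64 controls, 932 with several symbols and 9160 with none were left out. For each gene the probe set with the greatest mean was used, and genes above the array median on fewer than 2 arrays of a model were dropped.

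Models were fitted with limma 3.58.1 (lmFit, eBayes with trend) in R 4.3.3. The first, on 20 arrays, had terms for cell type and the WT title (residual degrees of freedom 10), and the second, on the 15 panel arrays, for cell type and tissue (residual degrees of freedom 6). Adjusted p-values are Benjamini-Hochberg values over all genes tested, in 14 comparisons. Where a comparison has a WT or tissue term, the fitted difference is not the plain difference of means. The method was tested on simulated data. Tables and figures used Python 3.11.15, pandas 2.3.3, numpy 2.4.6 and matplotlib 3.10.9. For arrays, their number limits the precision.

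The receptors, pathway lists and marker lists were chosen with earlier results of these data known. Genes named were the receptors, the 3 genes most like each by Pearson r, and per list and comparison up to 3 called genes with the largest differences. Alternatives varied the normalisation, filter, probe set rule, moderation, fold threshold, model terms and the arrays used. Fpr1 was not analysed here.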

Additional observations from a re-analysis of the deposited data

Results flagged for a closer look

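In panel SatM, lung gave the lowest Fpr2 value, 8.98, with the other 3 arrays between 11.43 and 11.88 and a gap of 0.844 of the whole range. In cMoP, the first WT-titled array gave the lowest Ltb4r1 value, 5.35, with the others between 6.45 and 6.67 and a gap of 0.832 of the range. The Ptafr probe set read 2.39 in blood SatM and 2.36 in the other panel SatM, a gap of 0.86 of a range that lies at the bottom of the scale. For replicates of 1 condition, chance sets apart about 1 in 20 groups in this way. Panel SatM came from different tissues and cMoP mixed numbered and WT-titled arrays, so that rate need not hold here.

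The step from progenitor to mature cell differed between the SatM and the inflammatory monocyte line, by the test of that difference, for C3ar1 (-10.95), C5ar1 (-5.02) and Ltb4r1 (-1.53). The part of the basophil markers, high in SMP and not in these SatM arrays, was not tested.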

How the results depend on the processing

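Over all alternatives 846 of 934 receptor differences kept their direction and their side of the threshold. Of 14 counts of receptors called, 7 moved by over 1.5 times somewhere. SatM against inflammatory monocytes went from 1 to 3 with only the groups compared and was 0 to 1 without 1 array. Neutrophils against basophils was 2 to 4 without 1 array, and against inflammatory monocytes 1 at the lowest. Eosinophils against basophils fell from 2 to 1 with no filter, with probe sets averaged, with no WT term and without any 1 array. M2-like macrophages against SatM was 0 to 2 without 1 array. Lung macrophages against SatM went from 0 to 1 for MP taken apart and was 0 to 1 without 1 array. Lung against marrow went from 1 to 0 with no filter and to 2 with the sorts apart, and was 0 to 2 without 1 array. The cause was not tested. Leaving out the tissue term could not be run for lung against marrow, which is that term.

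Signs that turned were mostly of uncalled values near 0. Leaving out 1 array gave Fpr2 in SMP against cMoP -1.11 to 0.78, and the numbered arrays alone -2.09. C5ar1 in SatM against SMP was -0.59 with the mean of probe sets, -0.68 with no WT term, -0.33 with only the groups compared, -1.25 on its other probe set and -0.02 to 0.38 (-0.0193 to 0.3762) without 1 array. C3ar1 in neutrophils against eosinophils was -1.76 with the mean of probe sets, -1.62 and -3.85 on its other probe sets and -0.26 to 0.68 without 1 array. Ltb4r1 in SatM against inflammatory monocytes was 0.11 with the panel array added, and in SatM against SMP -0.05 to 0.27 (-0.051 to 0.2709) without 1 array. Ltb4r1 in eosinophils against basophils was -0.37 to 0.10 without 1 array. The Fpr2 difference of the maturation steps was -1.83 to 0.06 (0.055) without 1 array, the highest without SMP_WT_1. In panel SatM against the remaining Ly6C- monocytes, Fpr2 was -0.24 to 0.26 and Ltb4r1 -0.75 to 0.13 without 1 array. In lung macrophages against SatM, Fpr2 was -0.57 and C3ar1 0.32 with no tissue term, and C3ar1 was -6.94 to 0.56 without 1 array and 0.56 for F480 posi taken apart.

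Counts over all genes moved by over 1.5 times in several places: SatM against inflammatory monocytes from 1128 to 679 with no WT term, SatM against SMP from 3234 to 1686 with only the groups compared, and SMP against cMoP from 4285 to 2572 and 1359 within numbered and WT-titled arrays. In the panel, no filter gave 732 for 1200, 555 for 975 and 471 for 1091, and no tissue term 579 for 975. The 8 and 28 genes of the remaining comparisons ran from 2 to 17 and from 13 to 1269, both highest without the lung SatM array. Leaving out 1 array gave 538 at the lowest for 1128 and 1003 for 1795 (inflammatory monocytes), 1529 for 2493 (the second eosinophil array), 447 for 1200 (blood SatM), 351 for 975 (spleen M2-like) and 367 to 2205 for 1091 (lung Msr1-dull and lung SatM). The labels tie no replicate numbers together. Of 36 pairs of groups, 4 had a correlation of same-numbered deviations over 0.1 (range -0.101 to 0.2325): the 3 pairs among spleen granulocytes (0.16, 0.1002 and 0.1171) and the WT-titled cMoP and SMP. Whether these shared a batch was not tested. With the replicate number as a block no receptor call changed, with 1, 3, 2, 4, 3, 3, 4, 2 and 3 called in the 9 comparisons outside the panel, and 1102 genes for 1128 in SatM against inflammatory monocytes. That block was 1 term shared by all groups. It cannot remove a batch held by only some groups, so the unchanged calls do not speak to one.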
